A study of Homo sapiens with 4 samples.

Results

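The cadherins, the protocadherins of the 3 gene clusters on chromosome 5 and the CELSR genes were followed in HEK293T cells, a line made from human embryonic kidney and expressing SV40 large T antigen. Members were the protein-coding genes outside chromosomes X and Y whose symbol begins with CDH and a digit, with PCDH or with CELSR, and whose counts summed to 40 or more over the 4 libraries. Of 89 genes with such a symbol, 46 met the count minimum, out of 69222 identifiers in all. The 46 were 3 CELSR genes, 4 PCDHA, 2 PCDHB and 12 PCDHG genes, 9 non-clustered protocadherins, 5 type I and 9 type II classical cadherins, and 2 other cadherins. PCDHGB2 and PCDHGB3 were just inside the minimum with 40 counts each, and PCDHB8 and PCDHGB1 were just outside with 35 each.

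One group of 2 libraries came from cells transduced by lentivirus with a short hairpin RNA directed at RPRD1B (shRPRD1B), and another 2 libraries came from cells given a control hairpin (shCtrl). RPRD1B binds the phosphorylated C-terminal tail of RNA polymerase II. Library totals were between 54722140 and 65572391 counts in shRPRD1B and between 47732913 and 48494258 in shCtrl. The sources used here do not give the hairpin sequences, and the labels do not say whether replicates were separate cultures, so p-values measure the spread between these libraries, which may be technical.

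Cadherins are membrane proteins whose extracellular repeats bind calcium and hold neighbouring cells together. Classical cadherins are tied to actin through catenins, and CELSR proteins, the seven-pass cadherins, act in planar cell polarity. The clustered protocadherins are best known from neurons, where each cell switches on a small choice of promoters and so acquires a surface identity. In the PCDHA and PCDHG clusters, 1 variable exon with its own promoter is spliced to constant exons shared by the whole cluster.

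RPRD1B itself had 27.2 and 35.5 CPM (counts scaled to library size) in shRPRD1B and 50.4 and 50.1 CPM in shCtrl, a log2 fold change of -0.68 ± 0.16 (SE). Its adjusted p was 0.448 by edgeR and 0.0467 by DESeq2. The shRPRD1B libraries differed from each other more than the shCtrl libraries did: the SD of the log2 ratio between libraries was 0.37 in shRPRD1B and 0.14 in shCtrl over 8930 genes of at least 16 CPM. Of 9 markers of the cells themselves, 6 had both shRPRD1B libraries below both shCtrl libraries, against 20.6% of all tested genes, and 0 had both above. EYA1, a kidney progenitor factor, had 2.98 and 2.66 CPM in shRPRD1B and 4.98 and 5.55 CPM in shCtrl, with an adjusted p of 0.441 by edgeR, and NEFM, a neurofilament gene, had 93.4 and 71.2 CPM in shRPRD1B and 105 and 97.05 CPM in shCtrl. VIM had 212 and 162 CPM in shRPRD1B and 196 and 195 CPM in shCtrl, and KRT18 had 55.6 and 48.4 CPM in shRPRD1B and 58.7 and 58.1 CPM in shCtrl. The 5 markers of mature kidney, NPHS1 of the glomerulus and the rest of the tubule, summed to at most 0.274 CPM in any library. The fibroblast markers summed to 25.4 and 23.5 CPM in shRPRD1B and 38.9 and 34.5 CPM in shCtrl. Most of that was COL1A1, with 20.05 and 19.37 CPM in shRPRD1B and 32.93 and 27.31 CPM in shCtrl. LUM was called lower by DESeq2 (adjusted p = 0.0217, and 0.322 by edgeR). PDGFRA lay the other way, with 2.015 and 1.916 CPM in shRPRD1B and 1.478 and 1.541 CPM in shCtrl, and COL3A1 overlapped. The histone methyltransferase gene EHMT2, in use in most dividing cells, had 0.534 and 0 CPM in shRPRD1B and 0.0422 and 0.205 CPM in shCtrl, so little can be said of a transcript from a low count.

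No member passed the edgeR threshold (adjusted p under 0.05), and DESeq2 called 1, CELSR3, which was higher in shRPRD1B. The background for these calls was 0.0689% of the 20319 genes tested by edgeR, in both directions, and 0.62% called higher by DESeq2. Several members nonetheless stood apart between the groups. CELSR3, CDH4, PCDH1, CDH23, CDH22, PCDHA10 and PCDHA2 were higher in shRPRD1B at an unadjusted edgeR p under 0.05, and PCDH10 and PCDH17 were lower. That is 7 of 46 members (15.2%) in the higher direction, against 3.55% of all tested genes, and 2 of 46 (4.35%) in the lower direction, against 3.94%. Of the 7 higher members, PCDHA2 reached the count minimum mainly through shRPRD1B. All 46 members passed the filter on low counts.

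**Figure D1:**
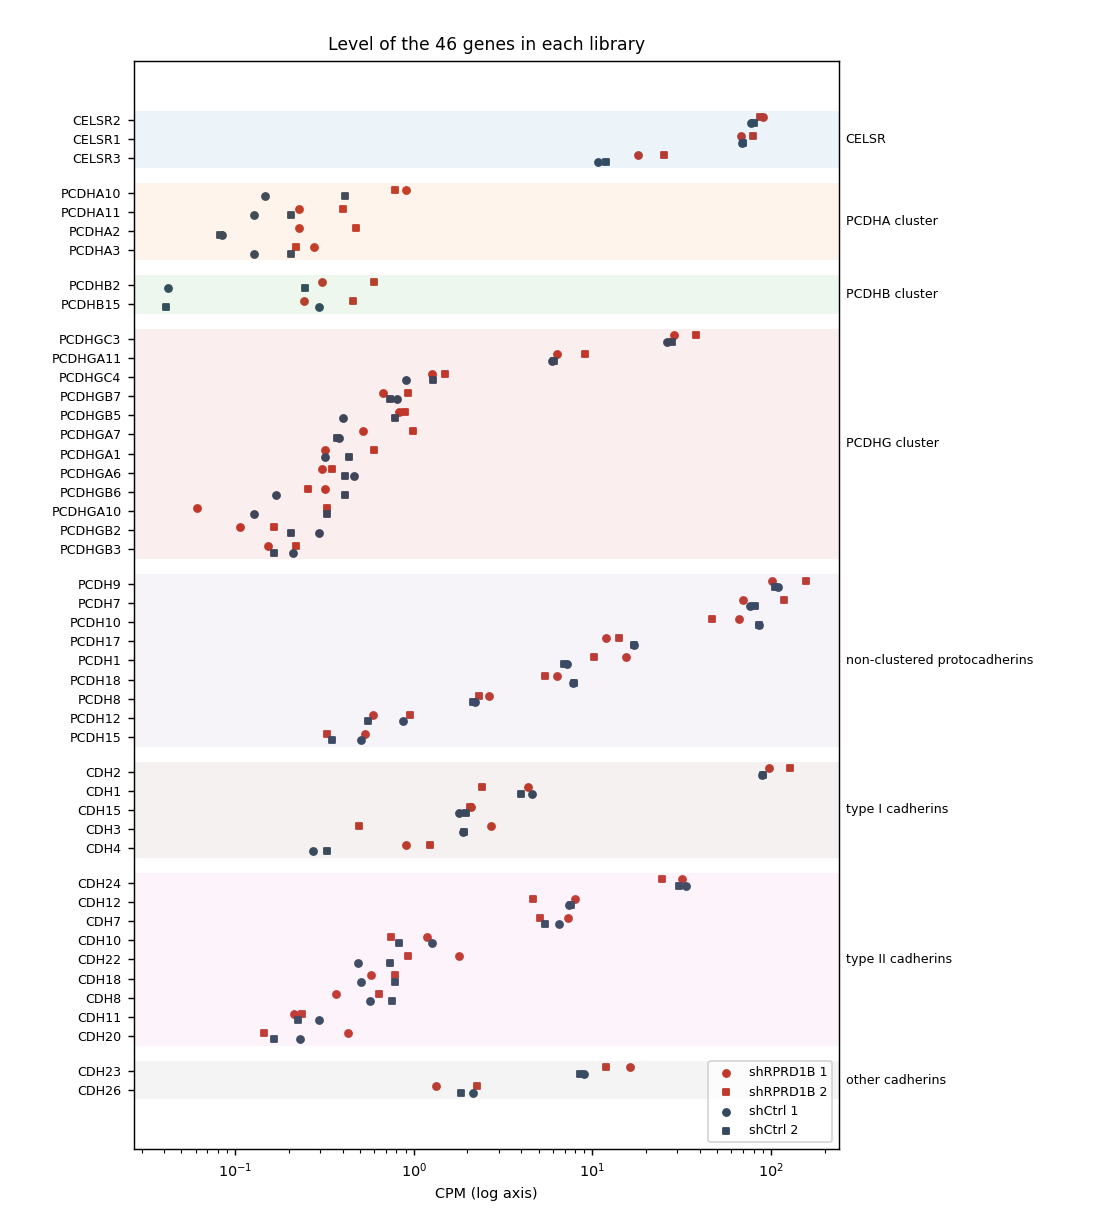
CPM on a log axis for each of the 46 genes, by family, with shRPRD1B libraries in red drawn above shCtrl libraries in blue, and replicate 1 as circles and replicate 2 as squares. Levels span 0.187 to 119 CPM as means over 4 libraries, and the red points of CELSR3, CDH4, PCDH1 and CDH23 lie to the right of the blue ones.

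In 18 of 46 members (39.1%) each shRPRD1B library lay above each shCtrl library, against 20.3% of all tested genes. In 5 members (10.9%) both lay below, against 20.6%. The median log2 fold change was 0.16 over the members, with 30 of 46 positive, and 0.00 over all tested genes, with 10257 of 20319 positive. Without shRPRD1B 1 the members' median was 0.28. Members with a mean under 1 CPM had a median of 0.27 (23 genes), against -0.05 over the 5291 tested genes in that range. The count minimum bears on this: 7 members had at least 20 counts in shRPRD1B and fewer than 20 in shCtrl, and 1 member the reverse. Low genes can thus pass the count rule mainly through 1 group, here more often shRPRD1B, and nothing is read from that median. The same rule bears on the 39.1% above and on the 15.2% higher at an unadjusted edgeR p under 0.05. Among the 7 are PCDHA2, PCDHA3, PCDHA11 and PCDHB2, which lay above, so neither share is read as a trait of the family. Members with a mean of at least 10 CPM had a median of 0.26 (11 genes), against 0.03 over the 10098 tested genes in that range. That shift came from 1 library. Set against the mean of both shCtrl libraries in log2(CPM + 0.1), the median of the 11 was -0.01 in shRPRD1B 1 and 0.43 in shRPRD1B 2.

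**Figure D2:**
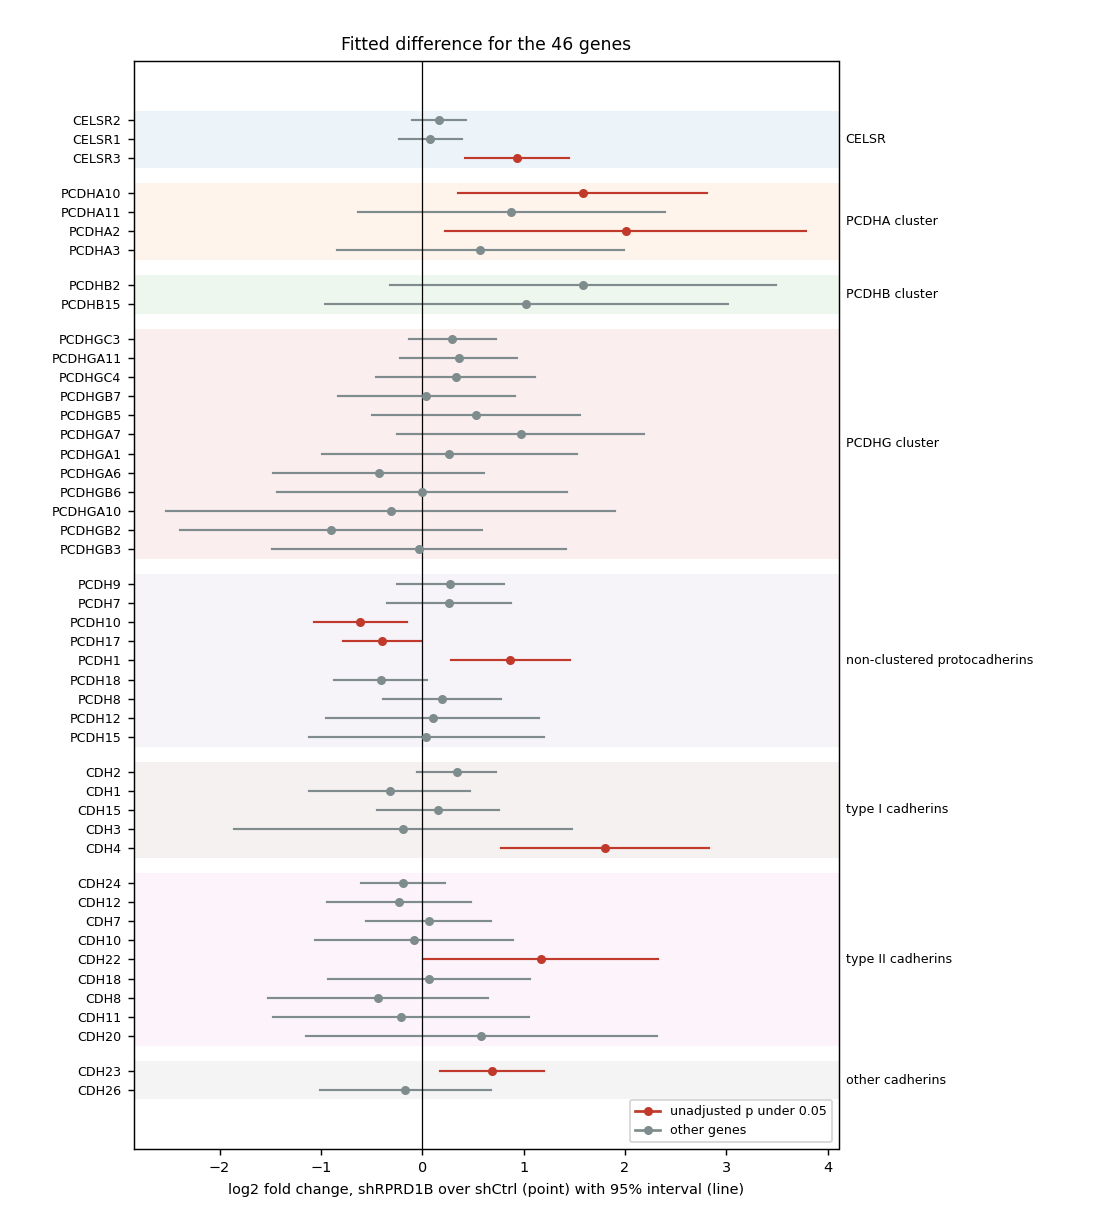
Fitted log2 fold change of shRPRD1B over shCtrl for each gene, with its 95% interval, by family. The 9 genes in red had an unadjusted edgeR p under 0.05, and 7 of them lie right of 0.

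The 3 CELSR genes differed in how far they separated the groups. CELSR3 (ENSG00000008300.17, chromosome 3, minus strand, 48636463 to 48662886 in GRCh38) had 1176 and 1386 counts in shRPRD1B and 507 and 579 counts in shCtrl. On the CPM scale it averaged 21.6 ± 5.19 in shRPRD1B and 11.3 ± 0.845 in shCtrl (SD, n = 2 each). The groups did not overlap, and shRPRD1B 2 was the higher of the 2 knockdown libraries. The log2 fold change was 0.93 ± 0.21 (SE), with an adjusted p of 0.419 by edgeR and 0.0112 by DESeq2. CELSR3 is best known for its part in axon guidance in mouse. CELSR2, the most abundant of the 3 per kilobase, had 90.8 and 87.0 CPM in shRPRD1B and 77.6 and 80.9 CPM in shCtrl, with a log2 fold change of 0.17 ± 0.11 (SE). CELSR1, which acts in planar polarity of epithelia, had 67.6 and 79.1 CPM in shRPRD1B and 69.3 and 69.7 CPM in shCtrl, so its groups overlapped. The neuron markers RBFOX3, SYN1, SNAP25, TUBB3 and DCX summed to 18.8 and 14.1 CPM in shRPRD1B and 9.33 and 8.67 CPM in shCtrl. Of these, 4 were tested, 3 had both shRPRD1B libraries above both shCtrl libraries, and DCX was at 0 in all but 1 library. Most of the sum was RBFOX3, with 15.1 and 9.63 CPM in shRPRD1B and 7.325 and 6.68 CPM in shCtrl. TUBB3 overlapped, with 0.534 and 0.420 CPM in shRPRD1B and 0.507 and 0.801 CPM in shCtrl, a log2 fold change of -0.44. The part of the neuron markers in the CELSR3 difference was not tested.

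CDH2, N-cadherin, had the highest level of the 46 genes per kilobase of exon not shared with another gene: 23.4 ± 4.59 CPM per kb in shRPRD1B and 18.6 ± 0.182 CPM per kb in shCtrl (SD, n = 2 each). It held between 90.6% and 95.4% of the counts of the 5 type I cadherins in shRPRD1B and between 91.2% and 91.7% in shCtrl. Its CPM was 97.3 and 128 in shRPRD1B and 88.7 and 89.9 in shCtrl. Both knockdown libraries were higher, but shRPRD1B 1 by little, and the log2 fold change of 0.34 had a 95% interval from -0.06 to 0.73.

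Below CDH2, neighbours in the order of levels per kilobase were close. In shCtrl, CDH24, PCDH10 and PCDHGC3 followed with 8.58 ± 0.564, 8.50 ± 0.00174 and 8.35 ± 0.352 CPM per kb (SD, n = 2), which did not differ beyond their spread. In shRPRD1B, PCDHGC3 had 10.3 ± 2.08, PCDH7 7.71 ± 2.80, CDH24 7.52 ± 1.37, CELSR2 7.20 ± 0.219, CELSR1 5.73 ± 0.636 and PCDH10 5.56 ± 1.37 CPM per kb (SD, n = 2). The spread of PCDH7 covered the means of all the others, so PCDH7 is not placed among them. PCDHGC3 had 8.79 and 11.7 CPM per kb in shRPRD1B. Both values were above those of CELSR2 (7.35 and 7.04), CELSR1 (5.28 and 6.18) and PCDH10 (6.53 and 4.59). They were also above those of CDH24 (8.49 and 6.55), but PCDHGC3 and CDH24 did not differ beyond their spread. No other order is read from shRPRD1B. At the low end, CDH11 had 0.0172 ± 0.00127 CPM per kb in shRPRD1B and 0.0199 ± 0.00374 CPM per kb in shCtrl (SD, n = 2 each).

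CDH4, R-cadherin, showed the largest fold of the classical cadherins at a low level. Its counts were 59 and 68 in shRPRD1B and 13 and 16 in shCtrl, or 0.900 and 1.24 CPM against 0.274 and 0.329 CPM. Both knockdown libraries stood clear of both controls, and the log2 fold change was 1.80 ± 0.41 (SE), with an unadjusted edgeR p of 0.00538 and an adjusted p of 0.43. DESeq2 gave it an adjusted p of 0.194.

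The 2 epithelial type I cadherins set the knockdown libraries against each other. CDH3, P-cadherin, had 178 and 27 counts in shRPRD1B and 89 and 93 counts in shCtrl, so shRPRD1B 1 was above the controls and shRPRD1B 2 below them. CDH1, E-cadherin, had 4.35 and 2.43 CPM in shRPRD1B and 4.58 and 3.99 CPM in shCtrl, with shRPRD1B 2 the lowest. The epithelial keratin gene KRT8 also was lowest in shRPRD1B 2, with 22.9 and 6.46 CPM in shRPRD1B and 27.1 and 24.9 CPM in shCtrl. Whether this bears on CDH1 and CDH3 was not tested. CDH15, known from muscle, had 2.11 and 2.06 CPM in shRPRD1B and 1.79 and 1.95 CPM in shCtrl.

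Among the type II cadherins, CDH24 had the highest level per kilobase, 7.52 ± 1.37 CPM per kb in shRPRD1B and 8.58 ± 0.564 CPM per kb in shCtrl (SD, n = 2 each). It had 31.8 and 24.6 CPM in shRPRD1B and 33.7 and 30.7 CPM in shCtrl, and its groups overlapped. CDH22 had 117 and 51 counts in shRPRD1B and 23 and 36 counts in shCtrl, with shRPRD1B 1 well above the rest. Its log2 fold change was 1.17 ± 0.47 (SE), with an unadjusted edgeR p of 0.0491 and an adjusted p of 0.665. CDH12, mainly known from brain, had 8.03 and 4.63 CPM in shRPRD1B and 7.41 and 7.56 CPM in shCtrl, so again the knockdown libraries lay on both sides of the controls. CDH7 had 482 and 278 counts in shRPRD1B and 310 and 264 counts in shCtrl, and CDH10 had 78 and 41 counts in shRPRD1B and 60 and 40 counts in shCtrl. In both genes the groups overlapped, as they did in CDH8, CDH11, CDH18 and CDH20, which had between 8 and 43 counts in any library. The median log2 fold change of the 9 type II genes was -0.08, and 4 of 9 were positive. Without shRPRD1B 1 the median was -0.23, and without shRPRD1B 2 it was 0.10.

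CDH23, which with PCDH15 forms the tip links of hair cells in the inner ear, had 1072 and 650 counts in shRPRD1B and 425 and 416 counts in shCtrl. These were 16.4 and 11.9 CPM in shRPRD1B and 8.97 and 8.55 CPM in shCtrl, without overlap. The log2 fold change was 0.69 ± 0.21 (SE), with an unadjusted edgeR p of 0.0169 and an adjusted p of 0.577. CDH23 shares 3505 exon bases with C10orf105 on the opposite strand, and reads of such a pair cannot be told apart where the strand setting is not given. Its partner PCDH15 had 35 and 18 counts in shRPRD1B and 24 and 17 counts in shCtrl. CDH26 had 1.33 and 2.26 CPM in shRPRD1B and 2.15 and 1.83 CPM in shCtrl, and overlapped.

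The non-clustered protocadherins differed in direction from gene to gene. PCDH1, a protocadherin of the delta-1 group known from airway epithelium, had 15.4 and 10.3 CPM in shRPRD1B and 7.18 and 6.90 CPM in shCtrl. Its groups did not overlap, and the log2 fold change was 0.87 ± 0.24 (SE), with an unadjusted edgeR p of 0.0116 and adjusted p-values of 0.546 by edgeR and 0.0845 by DESeq2. PCDH10, of the delta-2 group, went the other way, with 66.3 and 46.6 CPM in shRPRD1B and 86.3 CPM in each shCtrl library. Its log2 fold change was -0.61 ± 0.18 (SE), with an unadjusted edgeR p of 0.0172 and an adjusted p of 0.58. PCDH17 and PCDH18, of the delta-2 group too, were also lower in both knockdown libraries. PCDH17 had 11.98 and 14.2 CPM in shRPRD1B and 17.2 CPM in each shCtrl library, a log2 fold change of -0.40 ± 0.16 (SE). PCDH18 had 6.38 and 5.40 CPM in shRPRD1B and 7.81 and 7.89 CPM in shCtrl, a log2 fold change of -0.41 ± 0.18 (SE), with an unadjusted edgeR p of 0.0697. PCDH8, the last autosomal delta-2 member, had 2.64 and 2.33 CPM in shRPRD1B and 2.19 and 2.16 CPM in shCtrl, and so was higher in both knockdown libraries. PCDH12, known from blood vessels, had 39 and 52 counts in shRPRD1B and 41 and 27 counts in shCtrl, and overlapped.

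PCDH9 and PCDH7, of the delta-1 group, were high in shRPRD1B 2 alone. PCDH9 had 102 and 158 CPM in shRPRD1B and 109 and 106 CPM in shCtrl. PCDH7 had 70.2 and 119 CPM in shRPRD1B and 76.0 and 81.4 CPM in shCtrl. In both genes shRPRD1B 1 was below the controls, so the groups overlapped, and the fitted log2 fold changes were 0.28 ± 0.21 for PCDH9 and 0.26 ± 0.25 for PCDH7 (SE).

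**Figure D3:**
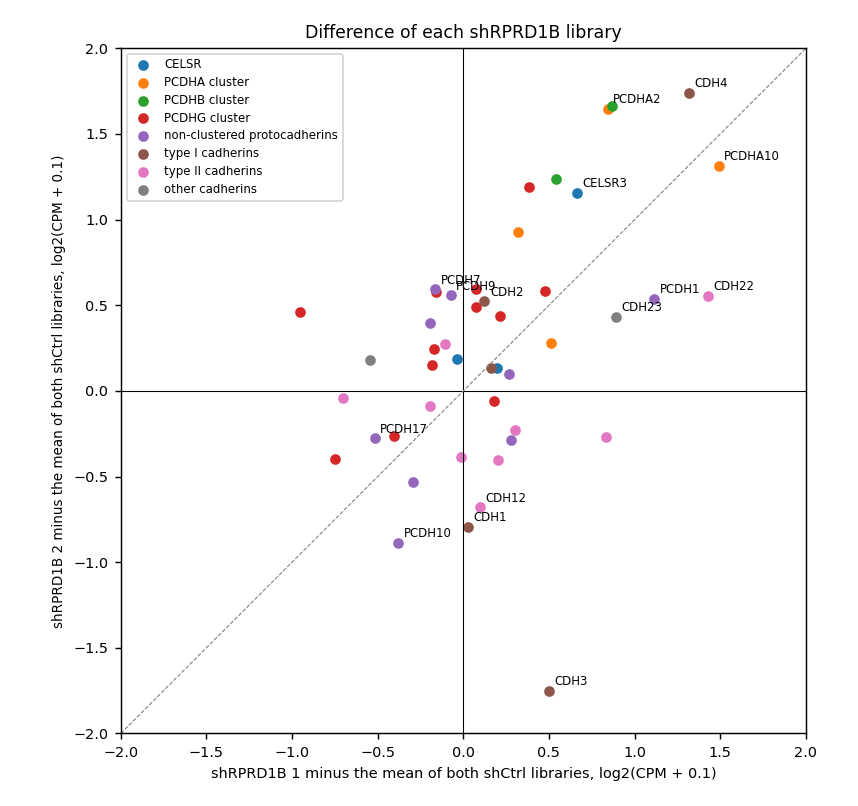
Difference of shRPRD1B 1 (x axis) and of shRPRD1B 2 (y axis) from the mean of both shCtrl libraries, in log2(CPM + 0.1), 1 point per gene, coloured by family, with the dashed line marking equal differences. Both libraries were above the shCtrl mean in 20 genes and below it in 8, and 18 genes, CDH3 among them, had opposite signs.

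The clustered protocadherins lie in 1 stretch of chromosome 5, in the order PCDHA, PCDHB, PCDHG, and 18 of their 53 genes were members. Most promoters of clustered protocadherins carry a conserved element around the letters CGCT. To show that element, the 120 bases before the start of 6 members are printed, 5′ to 3′ on the plus strand, from RefSeq promoter entries of GRCh38.p14. The 6 are the PCDHA members with the smallest p, both PCDHB members and the PCDHG members with the most counts, and capitals mark the word shared within that cluster.
PCDHA2, chr5:140794732-140794851: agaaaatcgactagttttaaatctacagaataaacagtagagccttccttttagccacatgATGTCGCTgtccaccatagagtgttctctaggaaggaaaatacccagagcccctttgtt
PCDHA10, chr5:140855777-140855896: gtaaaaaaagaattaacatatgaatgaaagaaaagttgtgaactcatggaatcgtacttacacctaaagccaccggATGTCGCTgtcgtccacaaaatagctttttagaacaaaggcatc
PCDHB2, chr5:141094495-141094614: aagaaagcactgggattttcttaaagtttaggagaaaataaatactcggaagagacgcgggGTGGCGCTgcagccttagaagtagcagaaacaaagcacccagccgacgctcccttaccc
PCDHB15, chr5:141245275-141245394: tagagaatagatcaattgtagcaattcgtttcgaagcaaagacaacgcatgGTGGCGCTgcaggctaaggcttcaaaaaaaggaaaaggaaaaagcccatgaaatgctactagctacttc
PCDHGA11, chr5:141420931-141421050: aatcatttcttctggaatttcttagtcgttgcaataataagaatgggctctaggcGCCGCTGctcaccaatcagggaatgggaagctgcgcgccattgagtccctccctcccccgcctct
PCDHGC3, chr5:141475846-141475965: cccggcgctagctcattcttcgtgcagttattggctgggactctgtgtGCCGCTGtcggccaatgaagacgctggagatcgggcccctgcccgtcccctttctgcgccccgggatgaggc

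The words were read off these promoters and then counted on both strands of the 300-base windows from 250 bases before to 50 after the start, so the counts describe them and test nothing. CGCT is contained in each of ATGTCGCT, GTGGCGCT and GCCGCTG, so every window with one of these also counts for CGCT. It stood in 51 of 52 windows of 47 clustered genes (98.1%), against 70.0% of all 35116 windows. ATGTCGCT stood in 9 of 13 PCDHA windows (69.2%) and in 0.234% of all windows. GTGGCGCT stood in 13 of 14 PCDHB windows (92.9%) and in 1.15% of all windows. GCCGCTG stood in 14 of 25 PCDHG windows (56.0%) and in 11.1% of all windows. Each of these longer words was found in 1 cluster and in 0 windows of the other 2.

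Each of the 4 PCDHA members was higher in both shRPRD1B libraries than in both shCtrl libraries, but PCDHA2, PCDHA3 and PCDHA11 reached the count minimum mainly through shRPRD1B. Over all 15 PCDHA genes, whatever their counts, 6 lay above in this way and 0 below, against 20.3% and 20.6% of all tested genes. The tested genes had passed the filter on low counts, so they are an unlike base for the 11 genes under the minimum. Among the 6, PCDHA4 had only 6 and 3 counts in shRPRD1B and 1 and 0 in shCtrl. PCDHA13 had only 2 and 4 counts in shRPRD1B and 0 in each shCtrl library. PCDHA10 had 59 and 43 counts in shRPRD1B and 7 and 20 counts in shCtrl, a log2 fold change of 1.58 ± 0.50 (SE), with an unadjusted edgeR p of 0.0202 and an adjusted p of 0.599. PCDHA2 had 15 and 26 counts in shRPRD1B and 4 counts in each shCtrl library, a log2 fold change of 2.01 ± 0.72 (SE), with an unadjusted edgeR p of 0.033 and an adjusted p of 0.65. PCDHA11 had 15 and 22 counts in shRPRD1B and 6 and 10 counts in shCtrl, and PCDHA3 had 18 and 12 counts in shRPRD1B and 6 and 10 counts in shCtrl. The groups were separate in all 4 genes, PCDHA3 by little, and no PCDHA member passed an adjusted threshold. Summed over all 15 PCDHA genes, including the 11 under the count minimum, the cluster had 147 and 125 counts in shRPRD1B and 31 and 53 counts in shCtrl. That is 2.24 and 2.28 CPM in shRPRD1B and 0.654 and 1.09 CPM in shCtrl. The 11 genes under the minimum alone had 40 and 22 counts in shRPRD1B and 8 and 9 counts in shCtrl.

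In the PCDHB cluster, whose genes are single coding exons, PCDHB2 had 20 and 33 counts in shRPRD1B and 2 and 12 counts in shCtrl, without overlap. Its log2 fold change of 1.59 had a 95% interval from -0.32 to 3.49. PCDHB15 had 16 and 25 counts in shRPRD1B and 14 and 2 counts in shCtrl. Its groups overlapped in CPM, with 0.244 and 0.456 CPM in shRPRD1B and 0.296 and 0.0411 CPM in shCtrl. The 2 controls differed widely from each other in both genes. Summed over its 16 genes, the cluster had 1.33 and 2.48 CPM in shRPRD1B and 1.08 and 0.925 CPM in shCtrl.

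The PCDHG cluster held most of the clustered counts, and its composition was nearly the same in every library. PCDHGC3, a C-type gene at the end of the cluster, made up 71.0% (95% Wilson interval 69.3 to 72.7) and 70.5% (68.9 to 72.2) of PCDHG counts in shRPRD1B. In shCtrl it made up 70.8% (68.6 to 72.9) and 69.4% (67.3 to 71.4). These intervals cover counting error only and take each count as independent. PCDHGA11 made up 15.7% and 16.8% in shRPRD1B and 15.9% and 15.1% in shCtrl. By level, PCDHGC3 had 10.3 ± 2.08 CPM per kb in shRPRD1B and 8.35 ± 0.352 CPM per kb in shCtrl (SD, n = 2 each). It had 28.6 and 38.1 CPM in shRPRD1B and 26.3 and 28.0 CPM in shCtrl, so shRPRD1B 1 was barely above the controls, and the log2 fold change of 0.30 had a 95% interval from -0.13 to 0.72. PCDHGA7 had 34 and 54 counts in shRPRD1B and 18 counts in each shCtrl library, with an adjusted p of 0.698 by edgeR. Of the 12 PCDHG members, 4 had both shRPRD1B libraries above both shCtrl libraries and 2, PCDHGB2 and PCDHGA6, had both below, against 20.3% and 20.6% of all tested genes. Over all 22 genes of the cluster, whatever their counts, 5 lay above and 5 below. The median log2 fold change of the 12 was 0.15, but 0.47 without shRPRD1B 1 and -0.06 without shRPRD1B 2. PCDHGB2 had 7 and 9 counts in shRPRD1B and 14 and 10 counts in shCtrl, and PCDHGA6 had 20 and 19 counts in shRPRD1B and 22 and 20 counts in shCtrl. Scaled to library size, PCDHGA6 had 0.305 and 0.347 CPM in shRPRD1B and 0.464 and 0.411 CPM in shCtrl. PCDHGB5, which encodes a B-type protocadherin, had 54 and 49 counts in shRPRD1B and 19 and 38 counts in shCtrl, and so lay on the other side. The C-type gene PCDHGC4 had 83 and 82 counts in shRPRD1B and 43 and 62 counts in shCtrl. Its groups overlapped in CPM, with 1.267 and 1.496 CPM in shRPRD1B and 0.908 and 1.274 CPM in shCtrl. PCDHGA1, PCDHGA10, PCDHGB3, PCDHGB6 and PCDHGB7 overlapped in CPM too, with between 4 and 51 counts in any library.

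The sources used here do not say how reads in the constant exons were counted. PCDHGA4 shares 2181 exon bases with PCDHGC3 in GENCODE 29 and had 0 counts in both shCtrl libraries, where PCDHGC3 had 1248 and 1361, so constant-exon reads were not added to every gene of the cluster. Levels of PCDHA and PCDHG genes are uncertain to the extent that such reads were dropped or kept.

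**Figure D4:**
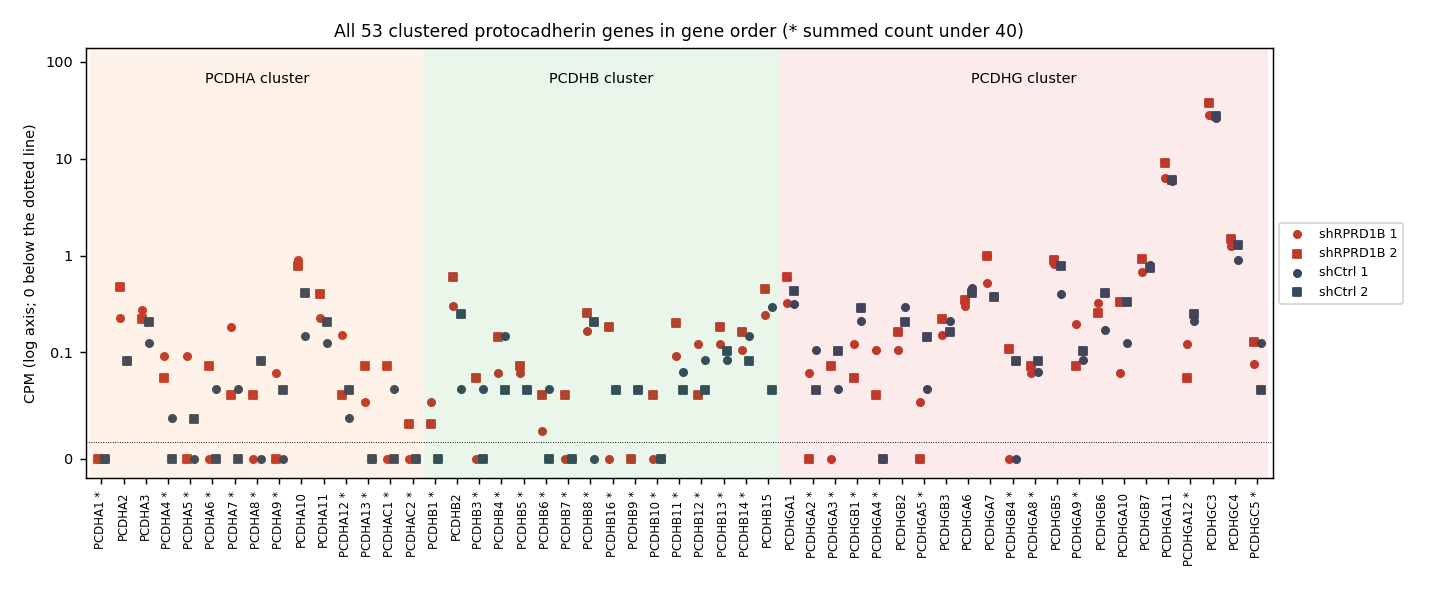
CPM on a log axis of all 53 clustered genes in gene order, with shRPRD1B libraries in red left of shCtrl libraries in blue, and libraries at 0 below the dotted line. PCDHGC3 and PCDHGA11 have the most counts in every library, and the red points of PCDHA2 and PCDHA10 lie above the blue ones.

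Other genes of the same pathways were read from lists, and edgeR called 0 genes in each of them. Catenins, which tie cadherins to actin, had 7 of 8 genes tested, a median log2 fold change of 0.04 and none at an unadjusted p under 0.05. The lowest p in that list belonged to JUP, plakoglobin, with 72.4 and 84.5 CPM in shRPRD1B and 88.4 and 89.7 CPM in shCtrl, and the next to CTNNA3, with 0.473 and 0.182 CPM in shRPRD1B and 0.591 and 0.431 CPM in shCtrl. CTNNB1, beta-catenin, had 516 and 618 CPM in shRPRD1B and 518 and 535 CPM in shCtrl. Among 7 tested desmosomal genes, 1 was lower at an unadjusted p under 0.05: the plaque gene PKP3, with 0.885 and 0.201 CPM in shRPRD1B and 1.79 and 2.30 CPM in shCtrl. DSC2, a desmosomal cadherin, had 55.0 and 59.5 CPM in shRPRD1B and 49.3 and 51.1 CPM in shCtrl.

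In the list of FAT and dachsous genes, 5 of 6 tested had both shRPRD1B libraries above both shCtrl libraries, against 20.3% of all tested genes, and none of the 5 had an unadjusted edgeR p under 0.05. The median log2 fold change was 0.44. FAT3 had 14.0 and 20.5 CPM in shRPRD1B and 10.4 and 12.7 CPM in shCtrl. FJX1, a kinase that acts on FAT and dachsous domains, was lower at an unadjusted p under 0.05, with 70.9 and 58.0 CPM in shRPRD1B and 85.3 and 79.6 CPM in shCtrl. Among 11 planar polarity partners of CELSR, the median was -0.00 and 1 gene, SCRIB, was called lower by DESeq2 (adjusted p = 0.035). SCRIB had 35.9 and 48.7 CPM in shRPRD1B and 126 and 61.6 CPM in shCtrl, so its controls differed by about as much as the groups. FZD6, a Frizzled receptor, had 29.4 and 33.3 CPM in shRPRD1B and 24.6 and 25.9 CPM in shCtrl.

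The chromatin factors of the protocadherin clusters, such as CTCF, cohesin and SMCHD1, had 22 of 22 genes tested, a median log2 fold change of 0.16 and none at an unadjusted p under 0.05. Set against the mean of both shCtrl libraries in log2(CPM + 0.1), the list's median was -0.03 in shRPRD1B 1 and 0.29 in shRPRD1B 2. TET3 had 41.5 and 68.4 CPM in shRPRD1B and 36.4 and 41.4 CPM in shCtrl, and DNMT3A had 43.4 and 40.2 CPM in shRPRD1B and 36.3 and 35.7 CPM in shCtrl. CTCF, which folds the clusters, had 83.9 and 139 CPM in shRPRD1B and 88.6 and 88.2 CPM in shCtrl, with the high value in shRPRD1B 2 alone. REST had 33.7 and 46.2 CPM in shRPRD1B and 39.7 and 47.9 CPM in shCtrl. Of 7 tested repressors of E-cadherin, SNAI2 was lower at an unadjusted p under 0.05, with 30.6 and 23.9 CPM in shRPRD1B and 37.0 and 36.0 CPM in shCtrl, and SNAI1 had 2.14 and 1.93 CPM in shRPRD1B and 2.79 and 3.08 CPM in shCtrl. Of 7 tested proteases that cut cadherins, none had non-overlapping groups. ADAM17 had 33.2 and 40.9 CPM in shRPRD1B and 31.8 and 33.3 CPM in shCtrl, and PSENEN, of gamma-secretase, had 14.0 and 8.81 CPM in shRPRD1B and 12.9 and 13.0 CPM in shCtrl.

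Calls depended on which shRPRD1B library was kept, where the lone library is assumed to vary as the controls do. Without shRPRD1B 1, edgeR called 12 members higher and 6 lower, against 14.6% and 14.4% of all 21448 genes tested. Without shRPRD1B 2 it called 4 members higher and 2 lower, against 5.91% and 4.47% of 21458 genes. These 2 fits share both shCtrl libraries. The log2 fold changes without shRPRD1B 1 and without shRPRD1B 2 were 1.16 and 0.67 for CELSR3, 0.55 and 1.13 for PCDH1, 0.44 and 0.90 for CDH23 and -0.89 and -0.38 for PCDH10. CDH1, CDH3 and CDH12 were called lower without shRPRD1B 1 and had log2 fold changes of 0.03, 0.52 and 0.10 without shRPRD1B 2.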

How the data were processed

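The deposited values are raw read counts of each gene, and the submitters' processing notes name Trim Galore, HISAT2, featureCounts and hg38. The sources used here give no tool versions, annotation release, strand or multi-mapping settings. The members and lists were chosen with earlier results of these data known. Counts were fitted with edgeR 4.0.16 (R 4.3.3): robust quasi-likelihood, TMM factors, filterByExpr with a minimum count of 10, group as the only term, Benjamini-Hochberg adjustment over 20319 genes, threshold 0.05. The quasi-likelihood version was set after several combinations of fit settings had been compared by their calls over all genes, to follow the processing of earlier work on these data: the newer one called 14 genes, the older one 7, and neither called a member. DESeq2 1.42.0 was likewise set to the filtered table (240 calls) after a first run on all counted genes (218 calls), and both called CELSR3. CPM used TMM-scaled sizes. Lengths came from GENCODE 29 exons unshared with other genes, promoters from RefSeq, which matched 37 of 46 members. Named genes were RPRD1B, the highest per kilobase and 2 smallest p of each family, members called or under an unadjusted p of 0.05, the 10 highest in CPM, the 3 largest ratios within a group among those of at least 1 CPM, and 2 per pathway list. Others named are exceptions chosen after seeing values. The 2 libraries of a group differed beyond sampling noise (chi-square divided by its degrees of freedom, 98.6 in shRPRD1B and 8.97 in shCtrl). In simulated data of 20319 genes, the fit recovered 65 of 100 2-fold and 99 of 100 4-fold changes, with 24 false calls among 188. Recovery was not split by expression level, and 23 of 46 members had means under 1 CPM. The recovery rates are therefore not read as the chance of calling a changed member. An exact permutation of 2 against 2 libraries cannot give a two-sided p under 0.333.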

Additional observations from a re-analysis of the deposited data

How the results depend on the processing

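No member was called by edgeR under other size factors, other low-count filters (16 members were left at 5 CPM), the older quasi-likelihood fit or the replicate block, or by limma voom, while DESeq2 called 1 higher, on the filtered table and on all counted genes. Over all genes, 14 were called, against 240 by DESeq2, 218 by DESeq2 on all counted genes, 40 with no low-count filter and 7 with the older fit. With at least 5 CPM in 2 libraries 0 were called (876 at an unadjusted p under 0.05), and with limma voom 0 (1460). With the replicate number as a block, 141 were called and no member. The numbers are not said to pair the libraries (correlation of same-numbered deviations 0.315, 2 pairs). Leaving out each library in turn gave 0 to 12 members higher, 0 to 6 lower, 54 to 6235 genes in all and a median of 0.13 to 0.28 over the members. Signs turned only when a shRPRD1B library was left out: over the 4 such fits the log2 fold change ran from -0.82 to 0.026 for CDH1, -1.94 to 0.52 for CDH3, -0.69 to 0.10 for CDH12, -0.037 to 0.19 for CELSR1, -0.16 to 0.60 for PCDH7 and -0.072 to 0.56 for PCDH9, turning without shRPRD1B 2, and from -0.58 to 0.19 for CDH26, turning without shRPRD1B 1. The cause was not tested. Of 312 values of the 23 named members under 14 alternatives, 281 kept direction and side of the threshold, 24 passed it and 7 turned. The older fit and DESeq2 on all counted genes were added after seeing the data. Of the members, 23 of 46 had means under 1 CPM, where few counts limit what can be told.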

Other observations

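In every library, more identifiers had a count of 2 than a count of 1: 2722 against 2252 in shRPRD1B 1, 2809 against 2271 in shRPRD1B 2, 2776 against 2213 in shCtrl 1 and 2904 against 2093 in shCtrl 2. The same held for 4 over 3 and for 6 over 5. The cause was not tested.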
